A study of Mus musculus with 2 samples.

Results

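The cells described here are colonic fibroblasts of the Pdgfra-H2B-eGFP mouse with high levels of Cxcl2, Tnfaip3 and Sbno2, called responding fibroblasts below. They were chosen by their measured values in the pdgfraegfp_colon library, in which 525 of 4409 cells met the rule, out of 11904 cells in the whole series. First, fibroblasts were gated as cells with Epcam and Ptprc at 0, Col1a1 of at least 1, a sum of F3, Sox6, Wnt5a and Acta2 below 4, and a sum of Pi16, Pcolce2 and Cd81 below 3, which left 2920 cells. Next, score A was the sum of the natural log values of Saa3, Cxcl5 and Cxcl9, and score B the same sum for Cxcl2, Tnfaip3 and Sbno2. Responding fibroblasts have a score A below its 85th percentile and a score B above 0 and at or above its 75th percentile over the gated cells. They were set against the 1581 gated cells whose score B was 0, called comparison cells.

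The pdgfraegfp_colon library was made from GFP-positive mesenchymal cells of the colon of female Pdgfra-H2B-eGFP mice, a strain in which the Pdgfra locus drives a nuclear green fluorescent protein, and the wt_colon library from wild-type C57BL/6 colon, with epithelial and mesenchymal cells mixed. Each library pooled 3 mice aged 8 to 12 weeks without treatment, and 16000 cells were loaded, on a version 2 kit for the reporter and a version 3 kit for the wild type. The mesenchymal fraction of both was freed by warm digestion with collagenase D and Dispase. With 1 library per strain and no map from cells to mice there is no replicate, so no test across mice was possible, no p-value is given, and all differences below are descriptions of these libraries.

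Background for these genes is as follows. Fibroblasts that sense microbial products or inflammatory cytokines activate the transcription factor NF-kB, which switches on chemokines together with its own inhibitors, and the cytokine IL-6 and its relatives signal through the receptor subunit gp130 to STAT3. Cxcl2 encodes a chemokine that attracts neutrophils, Tnfaip3 encodes A20, a ubiquitin-editing enzyme that restrains NF-kB signalling, and Sbno2 encodes a corepressor known as a STAT3 target in the response to IL-10. Immediate early genes such as Fos, Egr1 and Atf3 are transcribed within minutes of many stimuli without new protein synthesis.

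The start regions of 7 genes are shown, each picked with a motif that it holds: the 3 rule genes, Cxcl1, Nfkbia and Il6, which were higher in the same cells, and Socs3. The windows lie before the RefSeq start site on GRCm38.p6 and leave out bases that GENCODE M21 places in exons, apart from motif letters. Those of Tnfaip3, Sbno2 and Socs3 lie within the span that GENCODE M21 gives the gene, downstream of its outermost start. Capitals mark the NF-kB consensus in Cxcl2, Tnfaip3, Cxcl1, Nfkbia and Il6, and TTCNNNGAA, the spaced palindrome bound by STAT factors, in Sbno2 and Socs3, each searched on both strands over 250 bases. The windows are chr5:90903749-90903870 on the plus strand for Cxcl2, chr10:19015411-19015547 on the minus strand for Tnfaip3, chr10:80102720-80102852 on the minus strand for Sbno2, chr5:90891095-90891240 on the plus strand for Cxcl1, chr12:55492648-55492797 on the minus strand for Nfkbia, chr5:30012964-30013113 on the plus strand for Il6 and chr11:117969452-117969530 on the minus strand for Socs3.
Cxcl2: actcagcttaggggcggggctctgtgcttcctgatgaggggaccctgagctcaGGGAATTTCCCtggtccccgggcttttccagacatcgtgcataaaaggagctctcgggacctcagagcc
Tnfaip3: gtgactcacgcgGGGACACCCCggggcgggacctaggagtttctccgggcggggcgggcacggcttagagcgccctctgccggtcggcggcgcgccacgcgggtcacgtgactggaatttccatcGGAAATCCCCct
Sbno2: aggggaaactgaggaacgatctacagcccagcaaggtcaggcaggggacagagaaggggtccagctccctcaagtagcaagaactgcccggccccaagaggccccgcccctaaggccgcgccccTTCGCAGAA
Cxcl1: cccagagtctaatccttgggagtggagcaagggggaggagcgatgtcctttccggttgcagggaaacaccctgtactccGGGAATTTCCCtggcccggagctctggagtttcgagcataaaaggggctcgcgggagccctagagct
Nfkbia: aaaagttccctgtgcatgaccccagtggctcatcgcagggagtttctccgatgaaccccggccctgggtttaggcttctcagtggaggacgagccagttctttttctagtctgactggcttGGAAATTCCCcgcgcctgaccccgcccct
Il6: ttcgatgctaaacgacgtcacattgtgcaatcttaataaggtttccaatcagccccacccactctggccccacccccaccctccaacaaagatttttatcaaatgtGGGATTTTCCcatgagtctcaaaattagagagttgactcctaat
Socs3: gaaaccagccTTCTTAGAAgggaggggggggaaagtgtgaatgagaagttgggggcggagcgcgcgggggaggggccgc

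Cxcl2 and Cxcl1 carry the same letters, GGGAATTTCC, from base 97 and from base 71 before the start, and in both a second match on the other strand overlaps it by all but 1 letter. Tnfaip3 has 2 separate matches in this window, from bases 125 and 12 before the start. Sbno2 is listed with 3 start sites, and the window belongs to the most upstream one with a match to the STAT letters. Of the 3, 2 hold the STAT letters and 1 the NF-kB consensus, while Tnfaip3 and Il6 also hold TGANTCA, the AP-1 letters, so the genes do not divide cleanly by motif. Of 32851 promoters in the table, 7.25% hold the NF-kB consensus, 7.02% hold TTCNNNGAA and 6.75% hold TGANTCA in these 250 bases. Among promoters of genes at least 1.5-fold higher in responding cells, 14.5% hold the NF-kB consensus and 8.06% TTCNNNGAA, against 8.95% and 5.58% for measured genes. The other motifs searched were also more frequent: the CArG box at 4.84% against 1.30%, TGANTCA at 5.91% against 4.14% and TATAAA at 8.60% against 6.63%. Promoters of genes at least 1.5-fold lower hold the NF-kB consensus in 11.2% and TTCNNNGAA in 0%. Of 20 promoters of the measured gp130 and STAT3 genes, 1 holds TTCNNNGAA, so the 7 genes do not stand for the rest. These matches are letters only. Of the 99 genes looked up, 69 have a promoter in the table.

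The rule genes were detected in different cells more often than together. Their values chose the cells and are given as a description. Cxcl2 had a corrected count above 0 in 249 of the 525 responding fibroblasts (47.4%), with a mean of 2.95 and a highest value of 38. Tnfaip3 was above 0 in 200 cells with a mean of 0.670 and a highest value of 8, and Sbno2 in 362 cells (69.0%) with a mean of 1.41 and a highest value of 9. Only 28 cells had all 3 genes. Sbno2 alone qualified 144 cells, Cxcl2 alone 87 and Tnfaip3 alone 36, while 96 had Tnfaip3 with Sbno2, 94 Cxcl2 with Sbno2 and 40 Cxcl2 with Tnfaip3. Cxcl2 was the most uneven of the rule genes, at 0 in most responding fibroblasts and at a mean of 5.90 in the cells chosen by Cxcl2 alone.

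**Figure D1:**
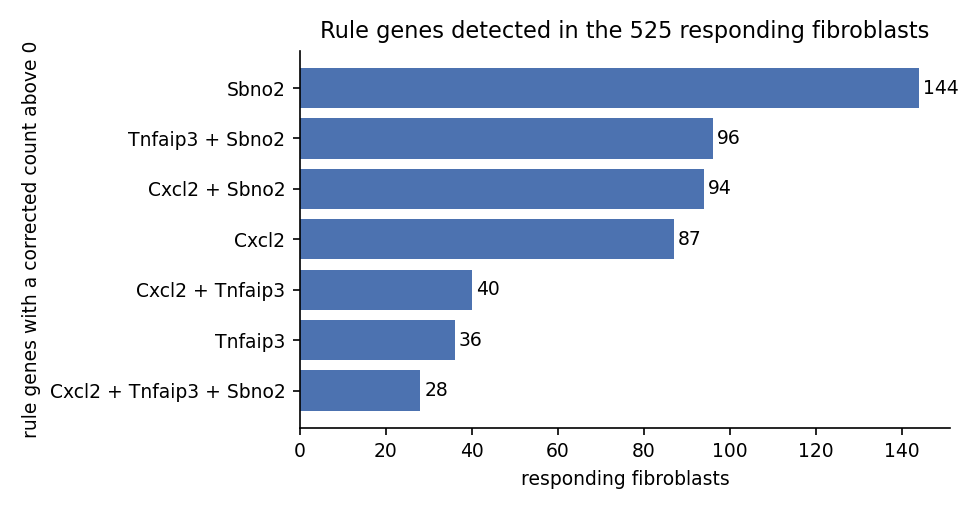
Number of responding fibroblasts (x axis) with each combination of rule genes at a corrected count above 0 (y axis). The bars add up to 525 cells, from 144 cells with Sbno2 alone to 28 cells with all 3 genes.

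Among gated cells with a score A of 0, each pair of rule genes was found in the same cell somewhat more often than the product of their separate shares. Cxcl2 and Tnfaip3 were both above 0 in 3.03% of these cells, against a product of 1.83%. For Cxcl2 with Sbno2 the values were 5.44% and 3.81%, and for Tnfaip3 with Sbno2 5.53% and 3.95%. Cells with more genes detected score above 0 more easily for any pair, and the part of depth in these shares was not tested.

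The 75th percentile of score B was 1.099, and 134 responding fibroblasts lay exactly on it. The next lower score was 0.693, which is a single corrected count of 1 rule gene, and 439 gated cells with a score A of 0 had it. The median score B of the responding fibroblasts was 1.61 and the highest was 5.48. The 85th percentile of score A was 0.693, so that all responding fibroblasts had Saa3, Cxcl5 and Cxcl9 at 0.

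The responding cells made up 18.0% of the gated fibroblasts (Clopper-Pearson 95% interval 16.6% to 19.4%, counting error only). Their fibroblast identity did not set them apart. The 10 general fibroblast markers summed to a mean of 70.6 corrected counts per cell in responding and 70.4 in comparison cells, and of the 9 that the rule did not use none passed 1.5-fold in either direction. Pdgfra, the gene behind the reporter, had a mean of 0.354 in responding and 0.335 in comparison cells. In the depth-corrected counts, the median number of genes above 0 per cell was 1345 against 1315 and the median total 3123 against 2998. The median mitochondrial share was 2.44% against 2.54%. Whether the cells yielded alike cannot be read from such counts, since depth as sequenced cannot be recovered.

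The markers of the first type of crypt-bottom fibroblast summed to 10.6 against 11.3, and none of 9 measured passed 1.5-fold. Those of the second type summed to 3.15 against 3.59, with 1 of 4 measured at least 1.5-fold lower and a median log2 ratio of -0.17, and those of crypt-top fibroblasts to 0.958 against 1.05, with 0 of 3 and a median of -0.16. In each of the latter lists the sum holds 3 genes that the gate had capped in both groups, so that these sums are partly set by the rule.

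Traces of other cell types were low and uneven. Neutrophil, mast cell and mesothelial markers summed to at most 0.0190 corrected counts per cell in responding fibroblasts, and endothelial, epithelial, muscle and glial markers to between 0.109 and 0.147. The macrophage list summed to 0.387 against 0.133, with 9 of its 10 genes above 0 in responding cells and Mrc1 at 0. Of this, Lyz2, lysozyme of macrophages, gave 0.149 against 0.0443. The Lyz2 excess rested on few cells. The 5 highest responding cells held 80.8% of the Lyz2 sum, and the share of cells above 0 was 3.81% against 3.73%. The larger part of the macrophage sum came from the other genes of the list, and this part was also higher in responding cells. Those genes were each too low on average to be given a ratio, and how their counts spread over cells was not tested. The lymphocyte list summed to 2.23 against 4.89, with Cd3d, Cd79b and Ms4a1 at 0 in responding cells. Igkc, an antibody light chain, made up most of it, with a mean of 1.39 against 3.62, and again 29.3% and 28.8% of cells were above 0. Cells with at least 2 macrophage, neutrophil or lymphocyte markers above 0 were 76 of 525 responding (14.5%, 11.6% to 17.8%) and 168 of 1581 comparison cells (10.6%, 9.15% to 12.3%). Without those cells the log2 ratio became -0.41 for Lyz2 and 0.088 for Igkc, while the NF-kB and immediate early lists below kept medians of 0.54 and 0.56.

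Across all genes, most values hardly differed between responding and comparison cells. Of 6432 genes with a mean of at least 0.05 over gated cells, rule and gate genes left out, 193 (3.00%) were at least 1.5-fold higher and 89 (1.38%) at least 1.5-fold lower in the responding cells. The median log2 ratio was 0.0046. Ratios are of mean corrected counts per cell after adding 0.01, which understates changes of genes with low means. Since the cells were cut from the same values, every gene here belongs to the contrast that chose them, and the ratios describe how the chosen cells look.

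The NF-kB pathway and its feedback genes were higher. Of 23 measured genes of this list, 11 were at least 1.5-fold higher and none lower, beside 3.00% and 1.38% of all genes, with a median log2 ratio of 0.50. Nfkbia encodes IkB alpha, the inhibitor that holds NF-kB in the cytoplasm. Its corrected count ranged from 0 to 19 with a median of 5 in responding cells and from 0 to 36 with a median of 1 in comparison cells. It was above 0 in 91.0% of responding (88.3% to 93.3%) and 65.4% of comparison cells (63.0% to 67.8%). The ranges of single cells overlapped while these intervals did not. The intervals hold counting error only and not the spread between mice. Its mean was 5.33 against 2.67, a log2 ratio of 0.99. Thinning every cell to a total of 2000 gave lower shares in the same order, 85.1% and 56.7%.

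Other feedback genes followed, as did subunits and targets. Nfkbiz, an atypical IkB protein of the nucleus, had means of 0.695 and 0.357. Rel, the c-Rel subunit, had 0.139 and 0.0645, and Icam1, an adhesion molecule for leukocytes, 1.82 and 1.02. Ier3, Zc3h12a, an RNase that degrades cytokine transcripts, and Map3k8 had log2 ratios of 0.79, 0.79 and 0.78, and Birc3, Nfkb1 and Bcl3 0.74, 0.65 and 0.69. Not all members took part. Nfkb2 was at -0.060, and the signalling components Traf2 and Ikbkb at -0.39 and -0.29.

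Of 10 measured chemokines, 3 were at least 1.5-fold higher and none lower, and the median log2 ratio was 0.037. Cxcl1, the neighbour and close relative of Cxcl2, had the largest ratio of the list at 1.26. Its corrected count reached 60 in responding cells with a median of 7, against a highest value of 67 and a median of 1 in comparison cells. Its mean was 10.1 against 4.23, and it was above 0 in 89.1% of responding (86.2% to 91.7%) and 60.7% of comparison cells (58.3% to 63.1%). In the wild-type library, made with another kit and sort, 4.99% of epithelial cells, defined by an Epcam count of at least 5, were above 0. Fibroblasts of that library were above 0 in 17.0% of cells picked by the rule and 11.9% with a score B of 0. After thinning, 84.2% and 53.3% of responding and comparison cells were above 0. The ranges of single cells thus overlapped fully while the middle of the distribution lay higher.

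Cxcl10, which attracts T cells, had means of 3.04 and 1.68, and Ccl2, which attracts monocytes, 1.76 and 1.04. Ccl2 was absent from most cells of both groups, being above 0 in 37.3% of responding and 24.8% of comparison cells. Ccl11, the eosinophil chemokine eotaxin, was at 2.59 against 3.29, and Cxcl12, Cxcl13, Cxcl14, Cxcl16, Ccl7 and Ccl8 lay between -0.22 and 0.23 on the log2 scale.

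Il6 was the most abundant of the cytokines and growth factors past 1.5-fold. It was above 0 in 241 responding fibroblasts (45.9%, 41.6% to 50.3%) and in 358 comparison cells (22.6%, 20.6% to 24.8%). In the wild-type library, Il6 was above 0 in 0.698% of epithelial cells. The fibroblast shares there were 10.6% in cells picked by the rule and 5.08% with a score B of 0. In responding and comparison cells of the reporter, the mean of Il6 was 1.43 against 0.657 and its highest value 16 against 17, with a median of 0 in both. Thinned to a total of 2000, the shares were 40.4% and 18.3%. Of the 18 measured cytokines and growth factors 3 were at least 1.5-fold higher and 1 lower, the other higher ones being the epidermal growth factor receptor ligands Hbegf, with means of 0.141 and 0.0563, and Ereg, with 0.697 and 0.377. The lower one was Il33, an alarmin of stromal cells, at 0.0438 against 0.113.

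Genes downstream of gp130 and STAT3 were higher as well, in a smaller share of the list. Of 18 measured genes 5 were at least 1.5-fold higher and none lower, with a median log2 ratio of 0.36. Socs3, the STAT3-induced inhibitor of gp130 signalling, had a mean of 3.77 against 1.80. Its median was 3 against 1, and 82.7% of responding (79.1% to 85.8%) and 54.8% of comparison cells (52.4% to 57.3%) were above 0. The kinase genes Pim1 and Pim3 had log2 ratios of 0.99 and 0.92, Socs1 had 0.77, and Osmr, the receptor for oncostatin M, 0.70. The receptor subunits Il6st (gp130) and Il6ra were at -0.096 and 0.046. Cish, another cytokine-induced inhibitor outside this list, had the largest ratio after Lyz2, at 1.39, from low means of 0.177 and 0.0614.

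Immediate early genes had, with the NF-kB list, the largest share of members past 1.5-fold of the 17 lists. Of 31 measured, 15 were at least 1.5-fold higher and none lower, and the median log2 ratio was 0.57. Egr2 had means of 0.488 and 0.188, a log2 ratio of 1.33. Atf3 had 3.30 and 1.503, with a median of 2 in responding and 0 in comparison cells. Fos was nearly everywhere, above 0 in 99.8% and 92.3% of cells, and its means were 20.5 and 14.0, short of 1.5-fold. Junb at 12.7 and 7.44 and Egr1 at 7.34 and 4.22 passed it. Cyr61, Ctgf, Rhob and Klf2 of the same list, named after their values were seen, lay between -0.14 and -0.011.

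Heat shock genes, which report protein stress, differed less. Of 17 measured, 2 were at least 1.5-fold higher, Dnajb1 at 3.91 against 2.30 and Hsph1 at 0.312 against 0.194, and the median log2 ratio was 0.26. Hspa1a and Hspa1b, near-identical copies whose reads cannot be assigned with certainty, were at -0.14 and 0.31. Both groups of cells went through the same tissue digestion. Its part in the levels of immediate early, heat shock and the other higher genes, and in their difference between the groups, was not tested.

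The metallothioneins Mt1 and Mt2, which bind metals and are induced by glucocorticoids and cytokines, were among the most abundant of the higher genes. Mt1 had a mean of 11.9 against 6.45 and Mt2 5.30 against 2.89. Together with Cdkn1a, the cell cycle inhibitor p21, they were the 3 of 10 measured genes of the glucocorticoid and metallothionein list past 1.5-fold. Tsc22d3, a classic glucocorticoid target, was at -0.0020 on the log2 scale. Of the 10 genes the median was 0.43.

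Of 28 measured interferon response genes, 2 were at least 1.5-fold higher and none lower, and the median log2 ratio was -0.15. The rule bears on this value, since it keeps cells with a high score A out of the responding cells but leaves 301 of them among the 1581 comparison cells. Against the 1280 comparison cells with a score A of 0, a choice made after seeing the data, the median was -0.077. The same change moved the median of the chemokines from 0.037 to 0.28, that of the NF-kB list from 0.50 to 0.68 and that of immediate early genes from 0.57 to 0.61. The 2 higher ones encode transcription factors: Irf1, which a gene on the opposite strand overlaps, at 1.93 against 0.899, above 0 in 73.0% and 39.9% of cells, and Irf7 at 0.189 against 0.118. The antigen presentation genes Psmb8, Psmb9, Tap1, B2m, H2-K1 and H2-D1 lay between -0.42 and -0.15.

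Genes for matrix and for the crypt niche stayed within 1.5-fold. None of 24 measured fibrillar matrix genes passed 1.5-fold, and their median log2 ratio was 0.024. Of 10 measured stem cell niche factors of the crypt-bottom fibroblasts and 12 BMP and crypt-top factors none passed it either, with medians of 0.079 and -0.018. The ratios furthest from 1 were those of the Wnt modulator Sfrp2, with means of 0.514 and 0.355 and a log2 ratio of 0.52, Wnt4 at 0.41, the collagen gene Col6a3 at -0.42 and the transcription factor gene Nkx2-3 at -0.34. In the wild-type library, described further on, Sfrp2 had a log2 ratio of 0.91 and Wnt4 0.51. Grem1, a BMP antagonist, had 0.562 and 0.546, and Wnt2b 0.0552 and 0.0626. Cd34, a marker of crypt-bottom fibroblasts, had 1.34 and 1.37. Rspo3 was too low to be measured, at 0.0286 and 0.0443.

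Matrix remodelling genes were split. Of 21 measured, 5 were at least 1.5-fold higher and none lower, with a median of 0.11. The higher ones included Has2, which makes hyaluronan, at 0.120 and 0.0563, Tnfaip6, whose product binds hyaluronan, at 1.82 and 1.15, and the protease Adamts4 at 0.339 and 0.184. Of 10 measured prostaglandin genes 2 were at least 1.5-fold higher and 1 lower, with a median of -0.064. Ptgs2, the inducible cyclooxygenase, was at 0.674 against 0.362 and the receptor Ptger4 at 0.280 against 0.163, while Hpgd, which degrades prostaglandins, was at 0.0571 against 0.106. Of 9 measured mRNA decay regulators 1 was past 1.5-fold, Zfp36, which destabilises cytokine transcripts, at 2.41 against 1.35, and the median of the list was 0.094. Complement genes had 1 of 10 past 1.5-fold, the inhibitor Cd59a, which was lower, and a median of -0.0047. Oxidative and hypoxia response genes had 1 of 15, Ndrg1, which was higher, and a median of 0.090. None of 4 measured cell cycle genes passed it, with a median of 0.27.

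**Figure D2:**
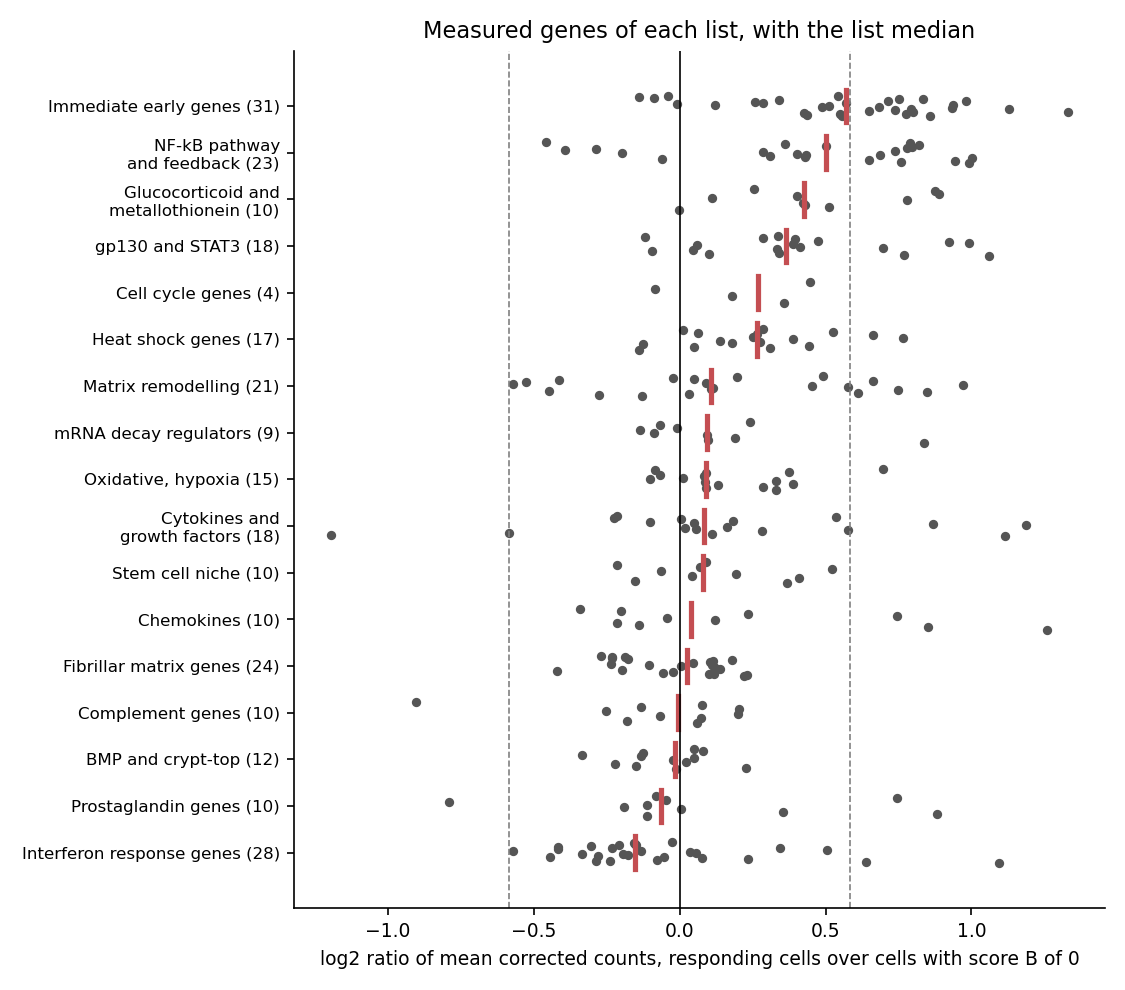
Log2 ratio of mean corrected counts in 525 responding over 1581 comparison cells (x axis) for each measured gene (points) of 17 lists (y axis, number measured in brackets), with list medians as red bars and 1.5-fold as dashed lines. Immediate early genes (median 0.57) and the NF-kB list (0.50) lie highest, and interferon response genes (-0.15) lowest.

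Outside the lists, the 15 genes with the largest ratios also included Rab20, Tmem88, Zbtb10, D10Wsu102e, Gm17056, Csrnp1, Slc25a25, Tcim and Bach1, with log2 ratios between 1.13 and 1.30. Csrnp1, an immediate early nuclear protein, was the most abundant of these with means of 0.674 and 0.288. Bach1 encodes a repressor of haem and oxidative stress genes. Csrnp1 overlaps the gene Cx3cr1 on the same strand. Gm17056, D10Wsu102e, Tmem88 and Slc25a25 overlap Lsmem1, Aldh1l2, Naa38 and Naif1 on the opposite strand. The counts of all these genes are therefore less certain. The genes with the lowest ratios had low means. Gas1, a Hedgehog co-receptor, was at 0.0267 against 0.0993, Cilp, a matrix protein, at 0.0210 against 0.0803, and Ebf1, a transcription factor of mesenchymal cells, at 0.0838 against 0.247.

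Levels followed score B within the cells that had a score A of 0. From 1280 cells with a score B of 0, through 439 cells just under the threshold and 341 responding cells below the 90th percentile of score B, to 184 at or above it, the mean of Cxcl1 went from 3.82 to 6.73, 8.57 and 13.0. Nfkbia went from 2.49 to 3.86, 4.87 and 6.18, and Il6 from 0.620 to 0.989, 1.28 and 1.72. Socs3 took the same order, from 1.84 to 2.87, 3.53 and 4.21. Each of these genes therefore stood higher in every step, including the cells that had missed the threshold by 1 corrected count. All were already known to be higher in responding than in comparison cells, so the ends of this order were not open. Irf1 and Atf3 levelled off between the last 2 groups, with Irf1 at 1.96 and 1.89 and Atf3 at 3.24 and 3.42. The cells just under the threshold had more genes above 0, with a median of 1441, and a median log2 ratio of 0.090 over all genes.

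Of the 10 genes with the lowest ratios, 3 are followed here along the same 4 groups, chosen after their values were seen. They had been picked for low means in responding cells, which fixes the end of the order. Ebf1 went from 0.273 to 0.187, 0.106 and 0.0435. Il33 went from 0.111 to 0.0774, 0.0587 and 0.0163, and Gas1 from 0.116 to 0.0569, 0.0381 and 0.00543, which is 1 corrected count in 184 cells. Iglc2, another of the 10, did not keep this order, at 0.0711, 0.0251, 0.0352 and 0.0109. In the wild-type library Il33 had a mean of 0.0681 in cells picked by the rule and 0.162 in comparison cells. Gas1 had 0.0340 and 0.0751 there, with 13 of the 31 corrected counts of the comparison cells in 1 cell, while Ebf1 had 0.174 and 0.155 and did not differ by 1.5-fold.

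**Figure D3:**
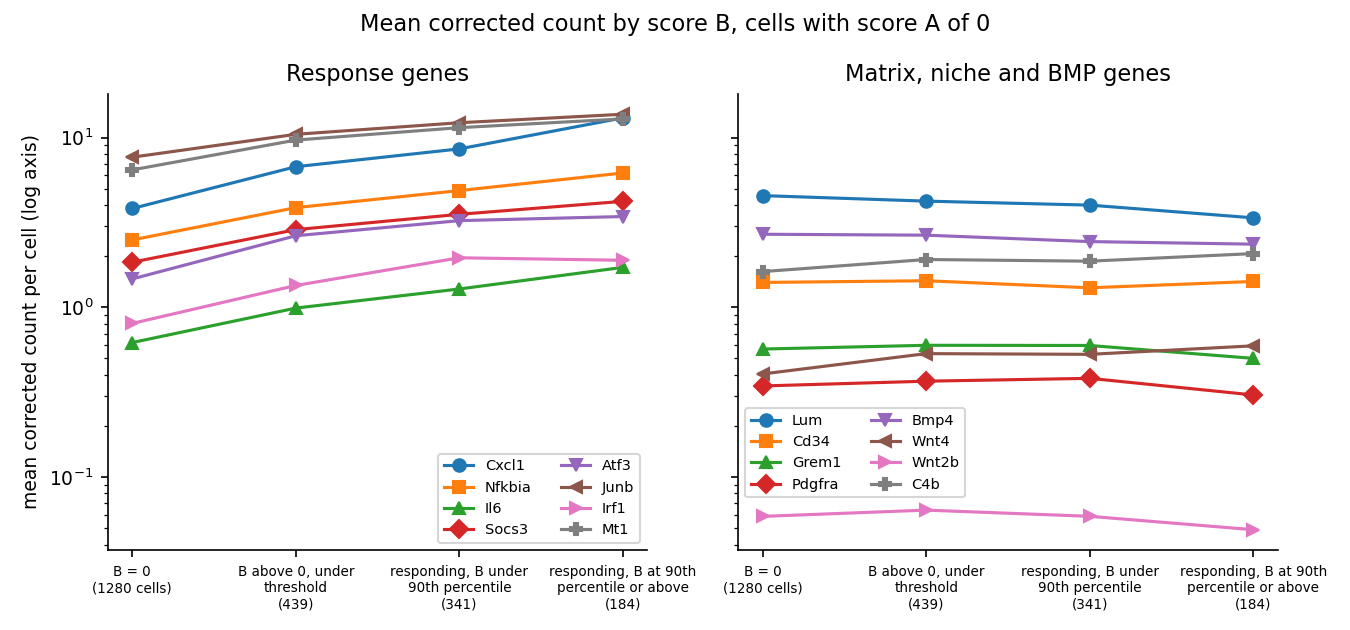
Mean corrected count per cell (log y axis) in 4 groups of gated cells with a score A of 0, ordered by score B (x axis), for 8 response genes (left) and 8 matrix, niche and BMP genes (right). Response genes climb, Cxcl1 from 3.82 to 13.0, while Cd34, Grem1 and Bmp4 stay close to their starting level.

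The responding fibroblasts also differed by which rule gene had brought them in. Cells chosen by Cxcl2 alone had the higher mean of Cxcl1 at 12.7, against 8.06 in cells with Tnfaip3 alone and 7.83 with Sbno2 alone. Socs3 took another order, at 4.28 in cells with Sbno2 alone and 2.77 and 2.75 in those with Cxcl2 or Tnfaip3 alone. As lists, the NF-kB genes had a median log2 ratio over the comparison cells of 0.59 in cells with Cxcl2 alone, 0.22 with Tnfaip3 alone and 0.20 with Sbno2 alone. The gp130 and STAT3 list had -0.029, 0.53 and 0.47. Immediate early genes were alike at 0.58, 0.56 and 0.42. Chosen by 2 or 3 rule genes, 258 cells had 0.65, 0.41 and 0.61 for the 3 lists. The 36 cells with Tnfaip3 alone had fewer genes above 0, with a median of 1110.5 and a median log2 ratio of -0.18 over all genes, against 1370 and 0.011 in the 87 cells with Cxcl2 alone.

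The nearest other fibroblasts were the 676 gated cells with a high score A, which carry Saa3, Cxcl5 or Cxcl9, genes of the acute phase and of neutrophil and T cell attraction. Both groups had high Nfkbia, with means of 5.33 in responding and 5.15 in A-high cells, and high Icam1, at 1.82 and 1.84. Ccl2 and Cxcl10 were higher in A-high cells, at 3.21 and 5.03 against 1.76 and 3.04. Socs3, Junb and Mt1 were higher in responding cells, at 3.77, 12.7 and 11.9 against 2.46, 8.43 and 8.13. The A-high cells were not picked by score B, which was 0 in 301 of them. The number of genes above 0 differed between responding and A-high cells, with medians of 1345 and 1565.

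In the 301 cells with a high score A and a score B of 0, interferon response genes had a median log2 ratio of 0.41 over all comparison cells and chemokines 0.55, while immediate early genes had 0.064. In responding fibroblasts the values were -0.15, 0.037 and 0.57, and in the 1280 cells with both scores at 0 they were -0.12, -0.17 and -0.015, so that the interferon value of the responding cells lay near that of cells with neither score. The 237 cells high for both scores had 0.51, 0.80 and 0.57, and the NF-kB list reached 1.05, against 0.36 in cells high for score A only and 0.50 in responding cells. In these 237 cells the gp130 and STAT3 list had 0.62 and the glucocorticoid and metallothionein list 0.76, against 0.36 and 0.43 in responding cells. All genes measured had medians of 0.14 and 0.22 in the 301 and 237 cells, against 0.0046 in responding fibroblasts.

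**Figure D4:**
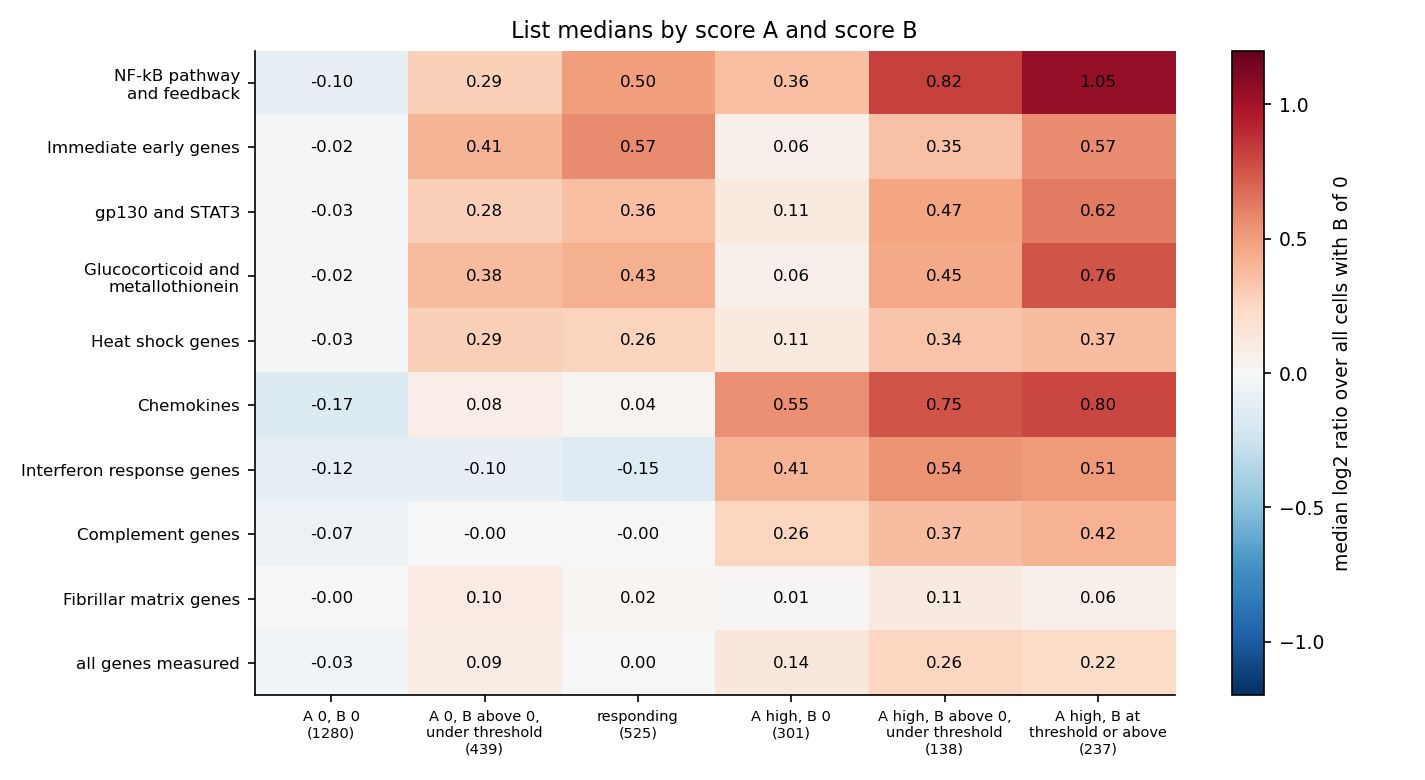
Median log2 ratio over all 1581 comparison cells (colour and printed value) for 9 gene lists and all measured genes (y axis) in 6 groups of gated cells by score A and score B (x axis, cells in brackets). The NF-kB list ranges from -0.10 with neither score to 1.05 with both high, and interferon response genes stand above 0 only where score A is high.

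In the wild-type library, the same rule with that library's own percentiles picked 235 of 657 gated cells. They were not the same kind of group. The 75th percentile of score B was 0.693, so any cell with 1 corrected count of a rule gene could enter. Sbno2 supplied 211 of the 235 cells, while Cxcl2 was above 0 in 7 (2.98%, 1.21% to 6.04%) and Tnfaip3 in 34. Cxcl2 was rare among wild-type fibroblasts in general, above 0 in 1.07% of gated cells against 16.3% in the reporter library. Kit, sort and depth differ between the libraries, and their part in that difference cannot be told apart from the strain.

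Even so, genes higher in responding fibroblasts leaned the same way in the wild-type library. There, 584 of 9519 genes (6.14%) were at least 1.5-fold higher and 172 (1.81%) lower, and the median log2 ratio over all genes was 0.10. This excess of higher genes changed when depth was matched, and the counts were 1042 and 793 with cells thinned and 345 and 462 within 3 groups by genes above 0. Of the 193 genes higher in the reporter, 175 were measured in the wild type, of which 40 (22.9%) were at least 1.5-fold higher and 153 (87.4%) above a ratio of 1, against 3.30% and 67.5% of the 6264 genes measured in both. The 40 include Cxcl1, Ccl2, Il6, Atf3, Bcl3, Ier3, Zc3h12a, Ptgs2, Has2, Mt2 and Cdkn1a. Of the 89 lower genes, 86 were measured and 6 (6.98%) were at least 1.5-fold lower, against 1.81% of all 9519 genes there. That set is wider than the 6264 genes measured in both, for which the share of lower genes was not computed. The 6 were Ccdc3, Gas1, Il33, Kcnk2, Lrba and Mab21l2. For the lower genes as a whole, 58.1% were above a ratio of 1 in the wild type, against 67.5% of the genes measured in both. Most thus did not keep their direction, though fewer stood above 1 than among all shared genes.

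Levels in the wild type were lower for the chemokines Cxcl1, Ccl2 and Cxcl10. Ccl11 was higher there, at 3.49 in cells picked by the rule and 6.16 in comparison cells. Cxcl1 had means of 0.928 and 0.363 in the 235 and 413 cells, above 0 in 17.0% (12.5% to 22.5%) and 11.9% (8.91% to 15.4%), so that these intervals overlapped. Il6 was above 0 in 10.6% (7.004% to 15.3%) and 5.08% (3.17% to 7.67%). Nfkbia had means of 3.32 and 2.28. As lists, the NF-kB genes had a median log2 ratio of 0.27 with 3 of 26 past 1.5-fold, immediate early genes 0.18 with 2 of 34, and gp130 and STAT3 genes 0.20 with 0 of 20, beside the library's median of 0.10. Cell cycle genes, with 5 of 10 past 1.5-fold and a median of 1.16, stood highest there, against 0.27 in the reporter library. Markers of other cell types were also higher in the wild-type cells picked by the rule, with sums of 0.791 against 0.189 for endothelium, 1.60 against 0.927 for smooth muscle and pericytes and 0.336 against 0.148 for macrophages, and their part in these values was not tested. The medians of the NF-kB, immediate early and gp130 and STAT3 lists were thus nearer to the background than in the reporter library. Not all lists were: that of cytokines and growth factors was at 0.33 against 0.083 in the reporter.

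**Figure D5:**
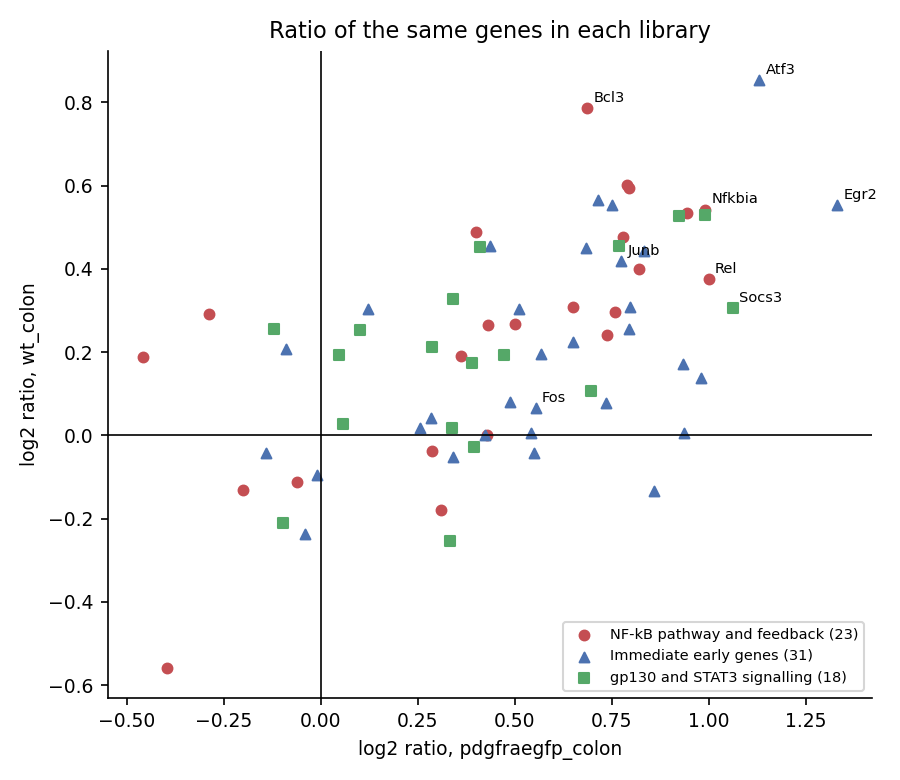
Log2 ratio of the rule's cells over cells with a score B of 0 in the reporter (x axis) and the wild-type library (y axis) for genes measured in both, by list. Most points lie right of 0 and above 0, with Atf3 at 1.13 and 0.85 and Nfkbia at 0.99 and 0.54, and most lie nearer to 0 on the y axis.

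With gated cells split into 3 groups by their number of genes above 0, the median log2 ratio of the NF-kB list was 0.52, 0.55 and 0.38 from the group with fewest genes to that with most, and that of immediate early genes 0.52, 0.81 and 0.50. The gp130 and STAT3 list had 0.28, 0.52 and 0.28. On the deposited log scale, which weights the frequent low counts more, the same lists had differences of 0.067, 0.29 and 0.077.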

How the data were processed

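Cells of 2 mouse colon libraries were analysed. Per the study's methods and the submitters' processing notes, the authors aligned reads to mm10 with Cell Ranger, counted unique molecular identifiers (UMIs), filtered cells and applied SCTransform in Seurat 3.1 under R 3.6.2. The whole-number score values as deposited by the authors are depth-corrected counts that SCTransform returns, as read from the values, since the natural log values as deposited equal ln(1 + corrected count). Depth as sequenced cannot be recovered, and corrected totals were 2314 to 4432 per cell in the reporter and 6120 to 16389 in the wild-type library. The libraries shared 1 barcode.

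Means, ratios and exact Clopper-Pearson 95% intervals (counting error only) were computed in Python 3.11.15 with numpy 2.4.6, pandas 2.3.3 and scipy 1.17.1, and figures drawn with matplotlib 3.10.9. The ratio was tested on simulated data with known changes. Log2 ratios used a pseudocount of 0.01 and genes with a mean of at least 0.05, the 16 rule and gate genes left out. Named are the rule genes, the 15 largest and 10 lowest ratios, up to 4 genes of each of 17 lists with the largest absolute ratio, and Nfkbia, Il6, Ccl2, Cxcl1, Fos, Egr1, Junb, Socs3, Wnt2b, Rspo3, Grem1, Pdgfra and Cd34; further list members were named after their values were seen. Members, lists and tests were chosen with earlier results of these data known. Doublets were not called. Sequences are from RefSeq on GRCm38.p6, and exons from GENCODE M21. The 16 alternatives for the reporter and 3 for the wild type changed the percentile, comparison cells, scaling, depth, pseudocount, filter, score genes, doublets, immune cells and scale.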

Additional observations from a re-analysis of the deposited data

How the results depend on the processing

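No paired analysis was possible because the labels give 1 library per strain and no test was run. Of the 58 named genes past 1.5-fold, the direction was kept under the 15 alternatives run on all 58, and in the 31 measured at a filter of 0.2, apart from Lyz2, at -0.41, and Igkc, at 0.088, without cells with 2 immune markers, and Igkc without cells above its median, where it is 0 in all cells by construction. Of the 58, 11 were past 1.5-fold as differences of mean log values, 40, 42 and 41 with score B without Cxcl2, Tnfaip3 or Sbno2, 41 with a pseudocount of 0.1 and 44 against all other gated cells. The setting without Igkc and comparison cells with a score A of 0 were chosen after seeing the data. Counts of genes at least 1.5-fold higher and lower, 193 and 89 as reported, were 410 and 383 with the 90th percentile of score B (184 members), 69 and 7 with a pseudocount of 0.1, 78 and 7 with a filter at 0.2, and 433 and 392 with a filter at 0.01. They were 71 and 23 with score B without Cxcl2, 85 and 22 without Tnfaip3, 112 and 43 without Sbno2, and 18 and 0 as differences of mean log values. The higher count was 68 against all other gated cells. The lower count was 179 with cells thinned to 2000, 180 within 3 groups by genes above 0 and 150 without cells with Igkc above its median. The NF-kB median was 0.70 with the 90th percentile, 0.27 against all other gated cells, 0.79 with the filter at 0.2 and 0.067 on the log scale. The gp130 and STAT3 median was 0.077 on the log scale, and that of immediate early genes 0.29 there and 0.44 without Sbno2. In the wild type, the counts were 1078 and 648 with the 90th percentile, 1042 and 793 thinned, and 345 and 462 within 3 groups by genes above 0. The filters change how many genes are tested and the score genes and percentile how many cells enter, and the cause of the other differences was not tested. One library per strain and corrected counts limit all values here.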
